A study of Mus musculus with 8 samples.

Results

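In the livers of fasted mice, 3384 of 49587 open-chromatin regions (6.82%) carried a peak in every library with an intact Ppara gene and in no library without one. The regions are the consensus regions deposited by the authors (mm10), and a region was called in a library when it overlapped a deposited peak of that library by at least 1 bp. Members were chosen by these calls alone, so their presence with Ppara and absence without it is the selection itself and not a result. The assay was ATAC-seq, which tags accessible DNA with a transposase that cuts it and attaches adapters, on flash-frozen liver of male C57BL/6 mice aged 9 weeks and fasted for 24 h. There were 4 genotypes with 2 libraries each: wild type (WT), liver knockout of Cpt2 (Cpt2 L-/-), knockout of Ppara (Ppara -/-) and the double knockout (Cpt2 L-/- ; Ppara -/-), whose Ppara deletion the labels give as whole-body. The first 2 genotypes are the Ppara-intact group and the last 2 the Ppara-null group, so the intact group is not all wild type. The promoter driving deletion of Cpt2 and the part of the Ppara gene that was deleted are not given in the labels. The labels do not say whether each library is from 1 mouse.

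PPARα, the product of Ppara, is a nuclear receptor that fatty acids activate. It binds DNA together with RXR at direct repeats of a short half-site spaced by a single base, an arrangement called DR1, and in the fasted liver it is known for inducing genes of fatty acid oxidation in mitochondria, peroxisomes and the endoplasmic reticulum, of ketone body synthesis and of fatty acid handling. CPT2 completes the import of long-chain fatty acids into mitochondria, the step before their β-oxidation.

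Of 27025 genes with a start site window in the RefSeq table used here, 490 had one overlapped by a region called only with Ppara intact. Of 89 genes known as PPARα targets, 66 have a start site window in that table, and 5 of these had one overlapped by such a region: Acaa1b, a peroxisomal thiolase; Acot1, an acyl-CoA thioesterase; Acsl1, a long-chain acyl-CoA synthetase; Fabp1, the liver fatty acid binding protein; and Cyp4a32, a fatty acid ω-hydroxylase. The 250 bases before each start site are printed 5′ to 3′ on the gene's strand, from RefSeq on GRCm38.p6, the assembly of mm10, to show the DNA that was called open only with Ppara. Their positions are chr9:119157094-119157343 (minus strand) for Acaa1b, chr12:84009252-84009501 (plus) for Acot1, chr8:46490716-46490965 (plus) for Acsl1, chr6:71199629-71199878 (plus) for Fabp1 and chr4:115600688-115600937 (plus) for Cyp4a32. The region covered all 250 bases except at Acsl1, where it covered 228. Capitals mark the half-site AGGTCA on either strand and a DR1-like match to AGGNCANAGGNCA.
Acaa1b: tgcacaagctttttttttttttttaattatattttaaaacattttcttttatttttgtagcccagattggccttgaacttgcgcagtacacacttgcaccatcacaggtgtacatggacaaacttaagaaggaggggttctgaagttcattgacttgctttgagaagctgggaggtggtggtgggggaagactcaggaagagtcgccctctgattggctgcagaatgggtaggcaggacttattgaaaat
Acot1: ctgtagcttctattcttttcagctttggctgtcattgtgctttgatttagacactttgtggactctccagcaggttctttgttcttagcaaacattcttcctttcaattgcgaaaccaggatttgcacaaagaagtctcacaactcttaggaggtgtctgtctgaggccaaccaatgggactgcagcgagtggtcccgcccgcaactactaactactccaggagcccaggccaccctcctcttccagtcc
Acsl1: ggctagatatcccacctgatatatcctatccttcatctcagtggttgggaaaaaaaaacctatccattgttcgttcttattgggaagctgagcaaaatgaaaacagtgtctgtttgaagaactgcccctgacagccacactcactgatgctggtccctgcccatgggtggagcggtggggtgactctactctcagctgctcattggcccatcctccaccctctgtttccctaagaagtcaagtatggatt
Fabp1: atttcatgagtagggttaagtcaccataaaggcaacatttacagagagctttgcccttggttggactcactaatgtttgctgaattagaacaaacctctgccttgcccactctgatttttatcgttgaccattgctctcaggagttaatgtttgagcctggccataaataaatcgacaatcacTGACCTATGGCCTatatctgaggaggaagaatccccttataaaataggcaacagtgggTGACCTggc
Cyp4a32: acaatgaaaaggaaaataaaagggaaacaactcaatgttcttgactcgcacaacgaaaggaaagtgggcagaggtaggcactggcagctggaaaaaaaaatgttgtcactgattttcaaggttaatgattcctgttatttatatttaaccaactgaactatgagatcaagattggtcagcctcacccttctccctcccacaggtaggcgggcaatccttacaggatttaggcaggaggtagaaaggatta
Fabp1 was the only one of the 5 with capitals. Its DR1-like match lay on the minus strand, beginning 67 bases before the start site, and a second half-site lay nearer to it. The other 4 sequences held neither pattern, which says only that these letters are not in these windows.

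The rule also follows how many peaks each list holds. Intact lists had 28733 to 39296 peaks and null lists 18132 to 22715. At the 11258 regions called in all 8 libraries, the median −log10 p of the authors' peaks was 57.3 to 89.23 in intact and 25.15 to 33.81 in null libraries, and the median fold over local background was 9.256 to 11.34 against 6.374 to 7.442. Peak names carry a number that was 441, 443, 446 and 4717 in intact and 6831 to 6834 in null libraries, so whatever that number records and Ppara status cannot be told apart. With every list reduced to its strongest 18132 peaks, the size of the shortest, 402 regions met the rule, and 321 of them (79.85%) were among the 3384, which is 9.486% of the members. Without wild type 1, 5875 regions met the rule. The part of these differences in the membership was not tested. Read totals are not in the peak lists, so the depth is unknown. In whole liver, fewer cells with an open region and less opening per cell cannot be told apart.

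Regions called only with Ppara intact stood mostly below the middle of the library lists in strength. Strength is the percentile of the authors' −log10 p within a library's own list, taken from the strongest peak on the region, where 100 is the strongest. The median percentile was 28.75 and 41.43 in the wild type libraries and 45.41 and 37.36 in the Cpt2 knockout libraries. Wild type 1, the shortest intact list, had the lowest median, and it was the weakest of the 4 at 1589 members (46.96%). Averaged over the 4 libraries, the median was 37.8, with quartiles of 27.29 and 48.81 and a range from 2.968 to 91.49. Regions called in all 8 libraries had a median of 80.97. The median was 43.14 for regions called in the 4 intact and 1 null library. It was 26.23 for those called in 3 intact and no null library, so low strength was not particular to the members. Library by library, all called consensus regions had medians of 50.51 to 50.72 in the 4 intact libraries. A mean percentile over 80 was reached by 21 members (0.6206%) and 60 to 80 by 278 (8.215%), while 402 (11.88%) were under 20. In 203 members (5.999%) all 4 percentiles exceeded 50.

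**Figure D1:**
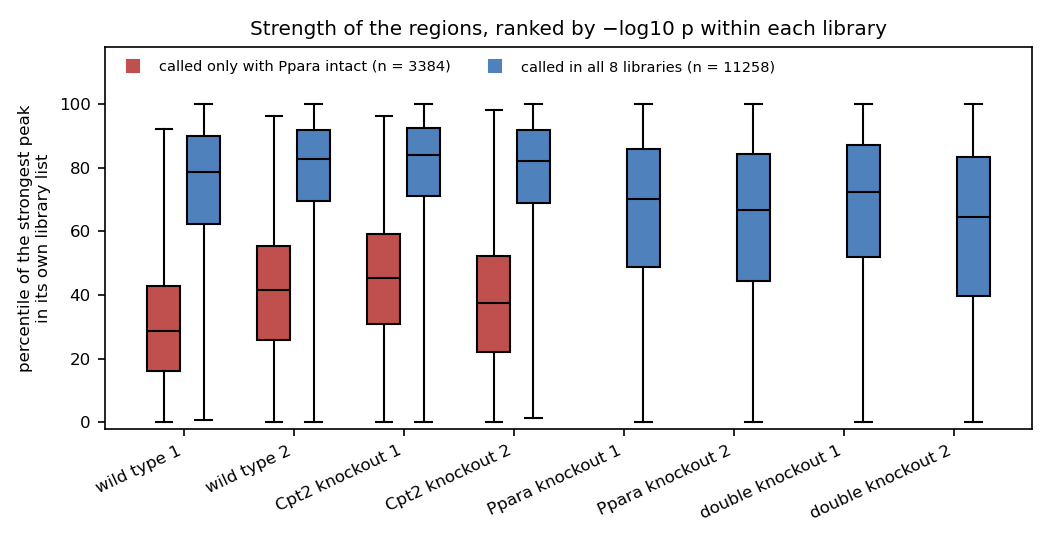
Percentile of the strongest peak on a region within its own library list (vertical axis) for each of the 8 libraries, as boxes of the middle quartiles with the median as a line and whiskers to the lowest and highest region. Regions called only with Ppara intact have medians of 28.75 to 45.41 and, by the rule, no values in the 4 Ppara-null libraries; regions called in all 8 libraries have higher medians in each intact library.

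The weakest members sat close to the limit of calling. The 3 lowest mean percentiles were 3 inside Rab5c, an endosomal GTPase, 3.3 at the end of Neil2, a DNA glycosylase, and 4.3 at 227318 bp from Cog6, a Golgi tethering subunit. The lowest of the 4 values of −log10 p was under 10 at 72 members (2.128%). Just outside the rule were 2691 regions called in the 4 intact and in 1 null library. The null library was double knockout 1 for 1118 of them, Ppara knockout 1 for 761, Ppara knockout 2 for 502 and double knockout 2 for 310, the same order as the lengths of the null lists. A further 3759 regions were called in 3 intact libraries and in no null library, and 2491 of these were missing from wild type 1.

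These regions lay mostly away from gene ends. Within 1 kb of either end of a protein-coding gene were 643 (19%; 95% exact binomial interval 17.69 to 20.36), inside a gene 1549 (45.77%) and outside genes 1192 (35.22%). The interval takes regions as independent and does not cover differences between libraries or ways of calling. The gene-end share was 25.97% over all consensus regions and 52.04% over those called in all 8. It was 26.38% among regions called in the 4 intact and 1 null library and 14.26% among those called in 3 intact and no null library, so the members lay between their neighbours on either side of the rule. The gene table gives no strand. By a separate table of start sites, 442 of 637 gene-end members were within 1 kb of a listed start site and 195 were not. That table lacks some genes, as 66 of the 89 PPARα target genes have a window in it. The 195 can therefore include members near unlisted start sites as well as members near the other end of a gene. The median distance to a gene end was 10830 bp, against 9392 bp for all regions and 637.5 bp for those called in all 8. Among the members, the gene-end share was 31.59% at mean percentiles under 20 and 10.79% at 60 to 80. In the top bin it was 19.05%, which is 4 of 21 regions. The share of members at gene ends was 36.19% when peaks needed a −log10 q of at least 20 and 13.43% with lists of equal number, so it depends on how regions are called. Members had a median width of 391 bp, against 381 bp for all consensus regions and 640 bp for regions called in all 8. The width was 423 bp for regions called in the 4 intact and 1 null library. For those called in 3 intact and no null library it was 342 bp. Member summits in the 4 intact libraries spread over a median of 61 bp. This spread was 52 bp for regions called in all 8 and 59 bp for those called in the 4 intact and 1 null library.

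**Figure D2:**
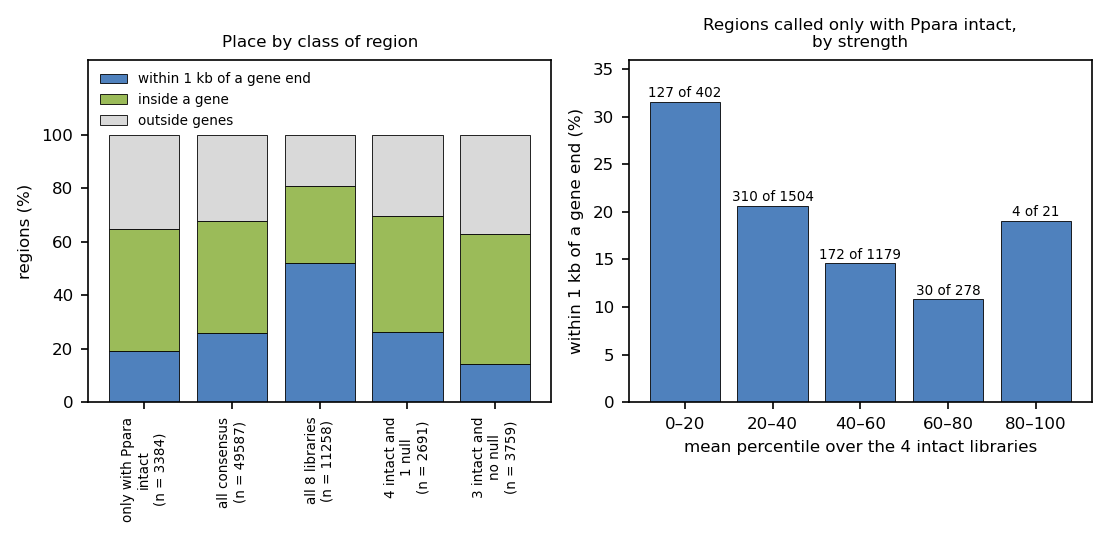
Left, the share of regions (%) within 1 kb of a gene end, inside a gene or outside genes, for 5 classes of region with the number in each. Right, the share of regions called only with Ppara intact that lie within 1 kb of a gene end (%), by mean percentile over the 4 intact libraries, with counts above the bars: it is 31.59% under 20 and 10.79% at 60 to 80.

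The strongest member lay 15994 bp from F3, which encodes tissue factor, the initiator of coagulation. Its percentile was 86.5 and 91 in wild type and 90.2 and 98.3 in Cpt2 knockout, a mean of 91.5 ± 4.9 (SD, n = 4 libraries of 2 genotypes). A region inside both Ccdc33 and Stra6, the latter a receptor for retinol uptake, had 78.6, 91.9, 94.6 and 96.6 in the same order. Wild type 1 was the lowest library at both. Inside Ints14, a subunit of the Integrator complex, the values were 84.6, 96.3, 86.7 and 94.1. Next to Cyp2j5, which encodes an epoxygenase of arachidonic acid, they were 88.2, 93.5, 89.5 and 84.6, 836 bp from the gene's end. The Cyp2j5 region varied least of the 10 strongest (SD 3.7). It was also the only gene-end region among the 10. A region 72879 bp from Irs2, which relays insulin receptor signals, had 76.6, 94.6, 90.1 and 89. A region 311826 bp from Myc, a growth-promoting transcription factor, had 68.5, 91.7, 87 and 96.5. Wild type 1 was again the lowest, and the Myc region had the widest spread of the 10 (SD 12.2). The others were inside Tmem260 (mean 88.3 ± 5.3), Ppara (88.1 ± 4.8), Elmod3 (87.9 ± 4.8) and Gna12, a G protein α subunit (86.3 ± 7.7). At each of these 10 regions all 4 intact peaks were among the strongest 18132 of their lists.

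**Figure D3:**
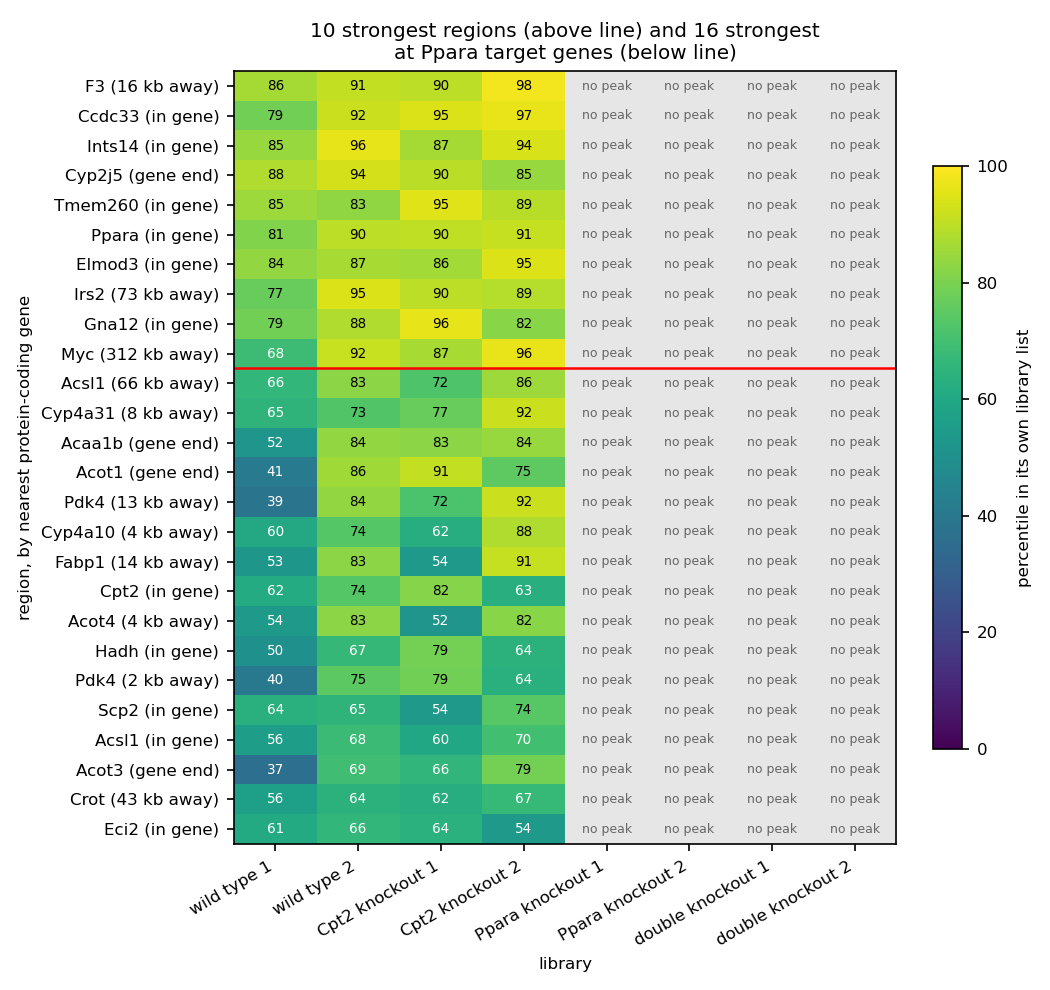
Percentile of the peak in its own library list (colour and number) for the 10 strongest regions and the 16 strongest regions nearest to PPARα target genes, in rows named by nearest gene and place, across the 8 libraries in columns. Grey cells had no peak, which the selection fixes for the Ppara-null libraries; wild type 1 is often the lowest of the 4 intact libraries, as at Myc (68.5).

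Ppara itself, on chromosome 15, had 7 member regions among the 25 nearest to it, the second most of any gene together with 2 others at 7, and 2 of the 25 were called in all 8 libraries. Of the 7, 3 were inside the gene and 4 outside. The strongest was at 85774288 to 85774815, with 81 and 89.9 in wild type and 90.5 and 91.2 in Cpt2 knockout. A second inside the gene had 70.7, 59.1, 51.9 and 22.7, so both wild type libraries stood above both Cpt2 knockout libraries there. The last inside the gene had 28.8, 65.2, 59.9 and 25.5. The 4 outside regions lay 17488 to 58859 bp away, with mean percentiles from 22.2 to 48.4. Since the extent of the deletion is not given, whether any of these regions lies in deleted DNA was not tested.

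Genes known as PPARα targets were the nearest gene for 1.714% of the members. Of the 413 regions nearest to the 89 PPARα target genes, 58 (14.04%) met the rule, against 6.82% of all consensus regions, and they belonged to 37 genes. With lists of equal number there were 19, and without wild type 1 there were 90. Their median mean percentile was 51.35 against 37.8 for all members. In 18 of the 58 (31.03%) all 4 peaks were among the strongest 18132 of their lists, against 9.486% of all members. The calls at these regions are those the selection used, so these counts are descriptions. Nearest is a matter of distance and does not show that a region acts on that gene.

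**Figure D4:**
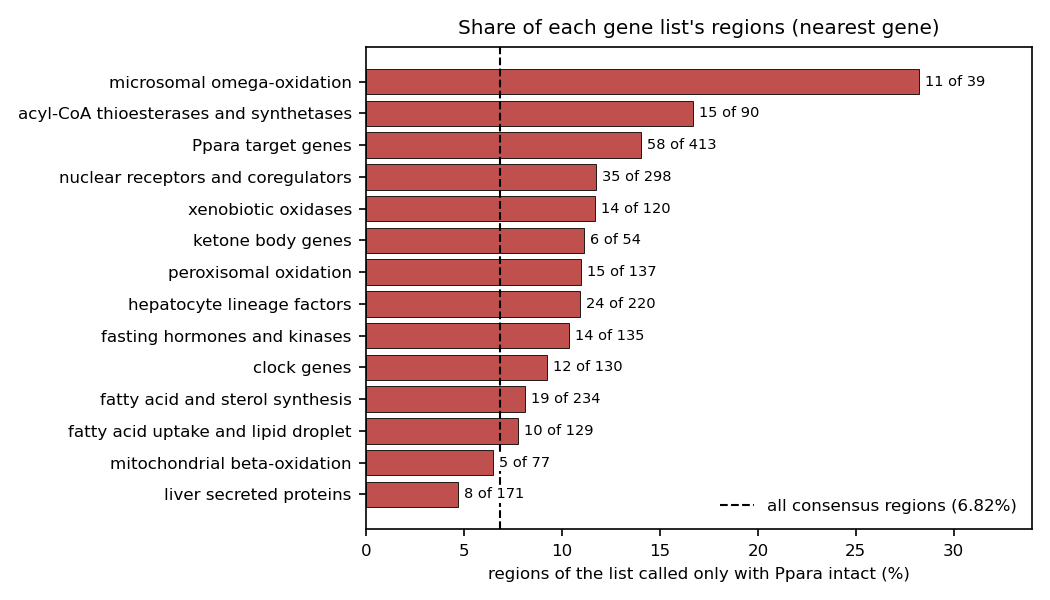
Share of the regions nearest to the genes of each list that were called only with Ppara intact (%), with counts beside the bars and a dashed line at 6.82%, the share of all consensus regions. Cell type marker lists are not plotted. Of the lists plotted, microsomal ω-oxidation has the highest share (11 of 39) and liver secreted proteins the lowest (8 of 171).

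Microsomal ω-oxidation had the highest share of the lists, 11 of 39 regions (28.21%). All but 1 of the 11 were at Cyp4a genes, the fatty acid ω-hydroxylases on chromosome 4. Cyp4a genes had 26 regions in all, of which 10 were members and none was called in all 8 libraries. The strongest lay 7624 bp from Cyp4a31, with 65.2 and 72.7 in wild type and 76.8 and 91.9 in Cpt2 knockout. One 3807 bp from Cyp4a10 had 60.4, 73.6, 62.3 and 88, and another 299 bp from Cyp4a10 had 23.3, 42.8, 65.5 and 82.6. Both Cpt2 knockout values exceeded both wild type values near Cyp4a31 and 299 bp from Cyp4a10, and the groups overlapped at the other. The remaining region of the list, 1433 bp from Aldh3a2, a fatty aldehyde dehydrogenase, had a mean of 45 ± 12.4 (SD, n = 4). How reads that fit several near-identical Cyp4a or Acot copies were placed is not given in the sources used here, so the split between those neighbours is uncertain.

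Acyl-CoA thioesterases and synthetases had 15 of 90 regions (16.67%). Thioesterases free fatty acids from coenzyme A, and synthetases attach it. The Acot genes on chromosome 12 (Acot1 to Acot6) had 21 regions, 7 of them members within 55.78 kb and none called in all 8 libraries. The region over the start of Acot1 had 41.3 and 85.8 in wild type and 90.9 and 75.1 in Cpt2 knockout. Wild type 1 was far below the other 3 libraries there, and the groups overlapped. At Acsl1 the strongest region lay 66448 bp away with 66.3, 82.8, 72.3 and 85.5, and one over the printed internal start site had 55.6, 68.2, 60 and 69.6.

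Peroxisomal oxidation had 15 of 137 regions (10.95%) in 10 genes. The region over the start of Acaa1b, whose sequence is printed above, had 52.1 and 83.6 in wild type and 82.7 and 84.5 in Cpt2 knockout, so only wild type 1 was low. Inside Scp2, a sterol carrier protein with a thiolase isoform, the strongest of 3 regions had 63.5, 65.2, 53.8 and 74.1. A region 3996 bp from Acot4, a peroxisomal thioesterase, had 53.9, 82.6, 52 and 82.4. Replicates differed there by about as much in each genotype, and the genotypes overlapped. Others of the list lay near Crot and Crat, carnitine acyltransferases (means of 62.4 and 56.7), and at the end of Abcd2, a peroxisomal fatty acid transporter (52.7).

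Mitochondrial β-oxidation had 5 of 77 regions (6.494%), which is at the 6.82% of all regions. The strongest was inside Cpt2, 1254 bp from its end, with 61.7 and 73.8 in wild type and 82 and 62.9 in Cpt2 knockout, so it was called in both libraries from livers with Cpt2 knocked out. Hadh, a 3-hydroxyacyl-CoA dehydrogenase, had 50.1, 66.7, 79.1 and 64.2 inside the gene. Decr1, which reduces unsaturated intermediates, had 43.1, 43.2, 44.4 and 59.9. The groups overlapped at Cpt2 and Hadh, while both Cpt2 knockout values were the higher at Decr1.

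Ketone body genes had 6 of 54 regions (11.11%). Inside Slc16a7, a monocarboxylate transporter, the percentiles were 40.4 and 63.3 in wild type and 68.8 and 51.1 in Cpt2 knockout, so the genotypes overlapped. Of the 6 regions, both Cpt2 knockout values exceeded both wild type values at 4 and were both lower at 0. Among all regions called in the 4 intact libraries these shares were 23.8% and 7.69%. Fatty acid uptake and lipid droplet genes had 10 of 129 regions (7.752%), 3 of them at Fabp1. The strongest Fabp1 region lay 14165 bp away with 52.9, 82.6, 53.9 and 91.3, and the one over the printed start site had 14, 74.1, 67.7 and 62. A region 485 bp from G0s2, an inhibitor of triglyceride lipase, had 46.8, 58.6, 74.8 and 62.9.

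Fasting hormones and kinases had 14 of 135 regions (10.37%). Pdk4, which shuts off pyruvate dehydrogenase, had a region 12955 bp away with 38.6 and 83.6 in wild type and 71.8 and 91.9 in Cpt2 knockout. A second Pdk4 region, 2440 bp away, had 40.3, 74.8, 78.6 and 63.5. Another of the list was inside Ppargc1b, a coactivator of nuclear receptors (61.5 ± 11.1). At both Pdk4 regions wild type 1 was the lowest library. Fgf21, a hormone of the fasted liver, had 2 regions with means of 49.1 and 43.3.

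Nuclear receptors and coregulators had 35 of 298 regions (11.74%) in 16 genes, including the 7 at Ppara. A region 681 bp from Nr1i3, the xenobiotic receptor CAR, had 43 and 62.4 in wild type and 74.6 and 83.1 in Cpt2 knockout. One 211679 bp from Nr5a2, a receptor governing bile acid and sterol genes, had 40.1, 68.3, 77.5 and 74.1. Both Cpt2 knockout libraries were higher than both wild type libraries at these 2. One region lay at a gene end of Rxra, the DNA-binding partner of PPARα, with a mean of 50.4 ± 8.2. Hepatocyte lineage factors had 24 of 220 regions (10.91%), among them 4 near Cebpb, a factor of acute and fasting responses, with means of 63.7, 59.8, 55.9 and 23.2. Of these 24, 16 were outside genes.

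Other liver programmes were described in the same way. Xenobiotic oxidases had 14 of 120 (11.67%), with Cyp2j5 at 88.9 and the next, 17428 bp from Cyp3a41a, at 47.2 and, 8655 bp from Cyp3a25, at 46.6. Clock genes had 12 of 130 (9.231%), among them a region inside Rora, a receptor of the clock's feedback loop, at 51.8 ± 8.8 and one inside Hlf, a clock output factor, at 49.8 ± 13. Fatty acid and sterol synthesis genes had 19 of 234 (8.12%), led by regions inside Elovl5, a fatty acid elongase (55.8), near Gpam, which starts triglyceride synthesis (55.5), and inside Acacb, an acetyl-CoA carboxylase (52.9). Liver secreted proteins had 8 of 171 (4.678%), with a median of 28.08 and none with all 4 peaks in the strongest 18132. Its 3 strongest were inside Itih2 (60.7), near Hp, which encodes haptoglobin (47.5), and near Apob, the core protein of very low density lipoprotein (41.5).

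Markers of cell types served as a check of the tissue. Of 8 hepatocyte markers, 7 had a region at the gene called in all 8 libraries. The same held for 1 of 5 endothelial markers and for 0 of 5 macrophage, stellate and cholangiocyte markers each. Regions at hepatocyte marker genes called per library numbered 22 to 32 in intact and 21 to 26 in null libraries. At endothelial markers they numbered 9 to 20 and 3 to 5, at stellate markers 2 to 5 and 0 to 1, and at cholangiocyte markers 2 to 3 and 0 to 1. Macrophage markers had 0 to 1 and 0. Over all consensus regions the called numbers were also higher in intact libraries, 28192 to 38544 against 17614 to 22064 in null libraries. Nearest to marker genes, members numbered 6 of 91 regions for hepatocytes and 3 of 18 for cholangiocytes. All 3 of the latter were nearest to Sox9, and 2 of them lay outside genes. Members numbered 1 of 38 for endothelium, near Pecam1, and 0 for macrophages and stellate cells. The share over all consensus regions was 6.82%. The part of cell composition in the membership was not tested.

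Most members stood alone. With neighbours joined when at most 10 kb apart, 2809 (83.01%) were single, 248 groups were pairs, 25 had 3 members and 1 had 4. The next member was a median of 79910 bp away, and 963 (28.46%) had a region called in all 8 libraries within 10 kb. Matching shares for other consensus regions are not given here, so whether this spacing is particular to the members was not tested. The group of 4 spanned 18536 bp on chromosome 1 (193270910 to 193289445) between G0s2 and Lamb3, a laminin chain. Its means were 60.8, 42.9, 58.9 and 35.6, and 1 further region among them was called in all 8 libraries. The shortest group of 3 spanned 3672 bp inside Gna12 (chromosome 5, 140812737 to 140816408), with means of 49.5, 48.4 and 54.9. The strongest Gna12 region lay outside that group. At Adipor2, an adiponectin receptor, 3 regions spanned 4008 bp (chromosome 6, 119417436 to 119421443), and 2 of them, at the gene's end, were lower in both Cpt2 knockout than in both wild type libraries. The stronger of these had 53 and 51 in wild type and 47.9 and 24.2 in Cpt2 knockout. Between Dph1, of diphthamide synthesis, and Rtn4rl1, a Nogo receptor homologue, 3 regions spanned 4232 bp (chromosome 11, 75189665 to 75193896) with means of 21.5 to 30.4. At Acaa1b 3 regions spanned 5535 bp (chromosome 9, 119155500 to 119161034) with means of 44.4, 75.7 and 38.6, and no other consensus region lay among them. In 10 of the 26 groups of 3 or more, no other region lay in the span. With lists of equal number no group of 3 was left, and without wild type 1 there were 82.

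By gene, 2582 of 21900 protein-coding genes were nearest to at least 1 member, and 2003 of them to exactly 1. How many genes were nearest to any consensus region is not given here. Lpp, a long gene for a focal adhesion protein, had the most, 11 of its 49 regions. Ppara and Nfia, a nuclear factor I gene, had 7 of 25 and 7 of 40, and Arid1b, a chromatin remodelling subunit, 7 of 43. Pde9a, a cyclic GMP phosphodiesterase, had 6 of 10, so more of its regions were members than not, at mean percentiles of 22.34 to 40.68. Of 221 gene families formed from shared symbol stems, the median had 6.294% of its regions as members. The most members belonged to Slc, the solute carriers (97 of 1209, 8.023%), and Gm, predicted genes that share only a naming scheme (49 of 712, 6.882%). Next by number were Cyp, the cytochromes P450 (37 of 294, 12.59%), and Tmem, transmembrane proteins (37 of 497, 7.445%). Zfp, zinc finger proteins, followed (33 of 795, 4.151%). The share over all consensus regions was 6.82%, and the shares of Slc, Gm and Tmem were near it. The highest share was that of Sult, the sulfotransferases, with 9 of 32 (28.1%). Its strongest, inside Sult1a1, had 72 and 76.1 in wild type and 63.3 and 85.5 in Cpt2 knockout, and 5 of the 9 were near Sult2a genes on chromosome 7. Next were Efcab with 6 of 30, strongest inside Efcab11 (54.2), Kcnk, potassium channels, with 7 of 36, strongest near Kcnk5 (58.3), Nat, with 5 of 26, strongest near Nat8f5 (48.3), and Acot with 9 of 48, strongest at Acot1 (73.3). Families of this size have few regions, and neighbouring members of a family share a locus.

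Start site windows that members overlapped were less rich in G and C than those of regions called in all 8 libraries and richer than windows at large. Each window runs from 250 bases before to 50 after a RefSeq start site, and 441 members overlapped 544 of 32851 windows. Their median GC content was 59.67%, against 63% for windows overlapped by regions called in all 8 libraries and 52.67% for all windows. At least 10 CpG pairs stood in 74.26%, 90.84% and 43.47%. The strongest such regions were at Slc35b1 (83) and Mfsd2a, a lysophospholipid transporter (82.7), both chosen after their values were seen. Motifs were searched on both strands, and shares are given for member, all-library and all windows in that order. The exact repeat AGGTCANAGGTCA was in 0 of 544, 0 of 7056 and 13 of 32851 windows. The looser AGGNCANAGGNCA, which includes the exact repeat, was in 3 (Ap1g2, Fabp1 and Gm35078; 0.5515%), 0.1701% and 0.3805%. The half-site AGGTCA was in 14.52%, 11.83% and 16.26%. The HNF4 motif CAAAGTCCA was in 6 member windows (1.103%), at Agxt2, Cyp2c68, Cyp2c70, Gm32063 and Gm35591, against 0.4252% and 0.4749%. The forkhead motif TGTTTAC was in 4.412%, 2.409% and 3.65%, and the C/EBP motif TTGCNNAA in 10.11%, 7.469% and 10.8%. The AP-1 motif TGANTCA was in 4.228%, 3.94% and 7.808%, the CRE motif TGACGTCA in 3.676%, 3.43% and 1.79%, and CCAAT in 30.33%, 43.01% and 37.41%. A match is not evidence of binding. Most members lie away from start sites, and their own sequences are not used here.

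Cpt2 status was not used by the rule, so the 2 intact genotypes can be set side by side, with 2 libraries each and no test. Both Cpt2 knockout percentiles exceeded both wild type percentiles at 791 members (23.37%), against 23.8% of the 24051 regions called in all 4 intact libraries. Both were lower at 214 (6.324%), against 7.69%. Both shares were near those of all such regions. The median difference, Cpt2 knockout minus wild type, was 5.692 percentile points among members and 2.916 among all regions called in the 4 libraries. Among members the median of wild type 2 minus wild type 1 was 10.61 points. The median of Cpt2 knockout 1 minus Cpt2 knockout 2 was 6.606. The genotype difference was smaller than either of these shifts, although it compares means of 2 libraries and they compare single libraries. The median among members was 1.078 without wild type 1, 10.22 without wild type 2, 2.19 without Cpt2 knockout 1, 9.261 without Cpt2 knockout 2 and 1.914 with lists of equal number, so its size rests on single libraries. Among the 58 regions at PPARα target genes, 16 (27.59%) were higher without overlap and 0 lower.

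The largest differences went both ways. A region 874 bp from Eif3k, a translation initiation factor subunit, had 23.7 and 1.2 in wild type and 67.8 and 57.3 in Cpt2 knockout. Inside Sulf2, an extracellular sulfatase, the values were 21.5, 36.8, 72.5 and 85.8. At 379046 bp from Slc5a7, a choline transporter, they were 25.2, 64.1, 88.3 and 97.8. The genotypes did not overlap at these 3, although the wild type replicates at Slc5a7 differed widely. Lower in Cpt2 knockout was a region inside Pmfbp1, with 92.3 and 68.2 in wild type and 32.9 and 45.1 in Cpt2 knockout. Inside Ppp1r3b, which targets a phosphatase to glycogen, they were 38.9, 50.7, 18.2 and 0.4, and inside Nfia 78.1, 60.2, 32.7 and 34.9. These 6 were picked as the extremes of 3384 and are descriptions.

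**Figure D5:**
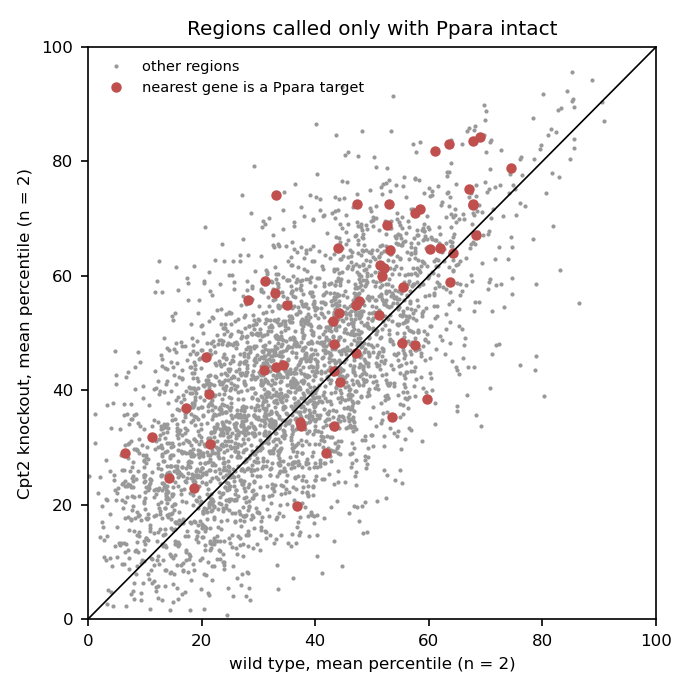
Mean percentile of each region called only with Ppara intact in the 2 wild type libraries (horizontal axis) and the 2 Cpt2 knockout libraries (vertical axis), with the line of equality and regions nearest to PPARα target genes in red. Points lie on both sides of the line, with a median difference of 5.692 points towards Cpt2 knockout.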

How the data were processed

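Each of the 8 ATAC-seq libraries has a peak list called separately by the authors, aligned with BWA and called with MACS2 2.1.0 on mm10, per the submitters' processing notes. Aligner settings, duplicate handling and the transposase offset are not given in the sources used here. The deposited lists give each peak's fold over local background, a ratio, and its −log10 p and −log10 q values, all by the authors, which were used only to rank, filter or describe peaks within a list. A further table deposited by the authors gives positions of 49587 consensus regions and no signal, so no model was fitted and no test was made.

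Regions were matched to peaks by overlap (1 bp or more) and assigned to the nearest of 21900 protein-coding genes (RefSeq, GRCm38.p6). Regions of 1 chromosome at most 10 kb apart formed groups. Named were the 10 strongest members, the 5 largest groups (shorter first), the 3 strongest members of each gene list, the 5 families (at least 10 genes and 20 regions) with the most members and the 5 with the highest share, the 3 extremes of the Cpt2 difference each way, the 3 weakest members and the 5 genes with the most members; further members of the lists are given as examples. A few members that this rule names are not reported here. The members and gene lists were chosen with earlier results of these data known. Scripts were tested on simulated data. Python 3.11.15, NumPy 2.4.6, pandas 2.3.3, SciPy 1.17.1 and matplotlib 3.10.9 were used. Alternatives were lists of equal number, a −log10 q minimum of 20, 50% of the region covered by a peak, other distances, ranking by fold, all genes of the table and leaving out each library.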

Additional observations from a re-analysis of the deposited data

How the results depend on the processing

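The number of regions called only with Ppara intact was 3384. It fell to 402 with lists of equal number and ranged from 3579 to 5875 with 1 library left out, highest without wild type 1. A −log10 q of at least 20 gave 4462, of which 696 were shared with the 3384, and a 50% cover gave 4276, of which 2913 were shared. The share within 1 kb of a gene end, 19%, became 13.43% with lists of equal number, 36.19% at a −log10 q of at least 20, 27.1% at 50% cover, 26.77% with all genes of the table and 34.78% at 5 kb, and was 16.37% to 21.44% with 1 library left out. Groups of 3 or more numbered 26, against 0 with lists of equal number, 52 at a −log10 q of at least 20, 44 at 50% cover, 9 with a gap of 5 kb, 60 with a gap of 20 kb and 30 to 82 with 1 library left out. The regions at PPARα target genes, 58, became 19 with lists of equal number and 59 to 90 with 1 library left out, again highest without wild type 1. Lists of equal number hold fewer peaks, and leaving out a library leaves fewer conditions to meet. The cause of the changes was not tested for any of the alternatives. The median percentile moved by less than the spread between libraries in each of its 12 alternatives, as did the median difference between Cpt2 knockout and wild type (5.692) in each of its 6, although that ranged from 1.078 without wild type 1 to 10.22 without wild type 2 and was 3.844 when peaks were ranked by fold. No paired analysis was possible because the results come from peak calls with no test. The lists give no read depth.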

Other observations

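MicroRNA genes were not among the genes used for the report. Of 1005 microRNA hairpins in the RefSeq table, 13 lay within 1 kb of a region called only with Ppara intact, at 13 regions. The number near other consensus regions is not given here, so the count is a description. The strongest of these was at Mir3968, with a mean percentile of 70.8. Mir203 had 2 such regions, with means of 54 and 43.2, and Mir375, a microRNA known from pancreatic islets, had one at 38.6. The others named here after their values were seen were at Mir148b (36.2) and Mir339 (33).

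Across chromosomes the share of regions that met the rule was highest on chromosome 12 (8.657%). Chromosomes 4 (7.753%) and 19 (7.688%) followed, against 6.82% of all consensus regions. Among autosomes the share was lowest on chromosome 3 (5.587%).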
